A study of Mus musculus with 16 samples.

Results

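Transcription factors of the adipogenic programme, encoded by 10 genes, were followed across the 4 groups and the 4 replicate numbers of this experiment. They were *Pparg*, *Ppara*, *Ppard*, *Cebpa*, *Cebpb*, *Cebpd*, *Rxra*, *Ebf1*, *Nr1h3* and *Zfp423*, and their rows were taken from the count table by gene symbol. All 10 were found among the 54347 genes listed, and all 10 passed the filter on low counts that left 13150 genes for testing. The cells were wt1-SAM, a line of immortalised brown preadipocytes of the mouse. The stable CRISPRa SAM system of this line is a catalytically dead Cas9 with activator proteins that raises transcription where a guide RNA directs it. Every group carried this system and was differentiated in a cocktail that held insulin (850 nM), T3 (1 nM), IBMX (500 µM), indomethacine (125 µM), dexamethasone (1 µM) and rosiglitazone (0.5 µM). Rosiglitazone stayed in the later medium, so that a PPARG agonist was present in controls as well. On day 4 the cells received 250 ng of plasmid, and they were harvested on day 7. The plasmid was either the empty vector or a pair of pSgRNA-MS2 plasmids with guides against the long noncoding RNA gene *Gm15551* (sgRNA cells), and each group was left as control or stimulated for 24 h with the β-adrenergic agonist isoproterenol (1 µM). This gave 4 groups of 4 polyadenylated RNA libraries, each group with the replicate numbers 3, 4, 5 and 6. All libraries came from 1 line, and no label says whether a number stands for a separate culture, so p-values measure the spread between these libraries.

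Adipogenesis runs through a cascade of transcription factors. CEBPB and CEBPD, bZIP proteins that bind as dimers, are induced early by glucocorticoid and cAMP, the signals that dexamethasone and IBMX mimic, and they switch on *Cebpa* and *Pparg*. PPARG, the nuclear receptor without which fat cells do not form, binds DNA as a heterodimer with RXRA, and PPARG and CEBPA then maintain each other and the genes of the mature adipocyte. PPARA and PPARD are the related receptors that drive fatty acid oxidation, with PPARA abundant in brown fat. NR1H3 (LXRα) is the oxysterol receptor that governs lipogenic and cholesterol efflux genes. EBF1 and ZFP423 act at commitment and upstream of *Pparg*, and ZFP423 is also known to hold back the thermogenic programme in white adipocytes. In brown adipocytes β-adrenergic stimulation raises cAMP, which activates CREB and induces *Ucp1* and *Ppargc1a*.

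The members lie on 8 chromosomes of the GRCm38 build. *Pparg* (ENSMUSG00000000440) spans chr6:115360951-115490399 on the plus strand, *Ppara* (ENSMUSG00000022383) chr15:85734983-85802819 on the plus strand and *Ppard* (ENSMUSG00000002250) chr17:28232700-28301474 on the plus strand. *Cebpa* (ENSMUSG00000034957, chr7:35119293-35121928), *Cebpb* (ENSMUSG00000056501, chr2:167688915-167690418) and *Cebpd* (ENSMUSG00000071637, chr16:15887286-15891031) have 1 merged exon each and lie on the plus strand. *Rxra* (ENSMUSG00000015846, chr2:27676440-27762957, plus), *Ebf1* (ENSMUSG00000057098, chr11:44617317-45008091, plus), *Nr1h3* (ENSMUSG00000002108, chr2:91184061-91202834, minus) and *Zfp423* (ENSMUSG00000045333, chr8:87661810-87959595, minus) have between 9 and 17 merged exons. Counts are per gene and sum all isoforms, so the 2 known protein forms of *Pparg* could not be separated. *Cebpb* shares 312 exon bases with *Tmem189* and *Cebpd* shares 562 with *Spidr*, both on the opposite strand, and since strand use in the counting was not stated, reads from those stretches cannot be assigned to either gene with certainty. *Tmem189* had a mean of 62.1 CPM and *Spidr* one of 30.2 CPM, against 6.26 CPM for *Cebpd*, so the *Cebpd* values are the less certain.

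Promoters are shown for the 4 members that fell with isoproterenol, for *Cebpb*, and for a *Pparg* start, because these genes carry the comparisons that follow. The sequences are RefSeq entries on GRCm38.p6, which held 9 of the 10 members with 15 start sites among them; *Cebpd* had none. Each line gives the 250 bases upstream of a start site, 5′ to 3′ on the strand of the gene, with the first listed start used where a gene had several, except for the downstream start of *Pparg*. Capitals mark matches on either strand to TGACG (the core of a cAMP response element, bound by CREB), TTGCNNAA (the C/EBP core) or AGGTCA (the nuclear receptor core), and no matches overlapped in the lines shown.
Cebpa, chr7:35119043-35119292, plus: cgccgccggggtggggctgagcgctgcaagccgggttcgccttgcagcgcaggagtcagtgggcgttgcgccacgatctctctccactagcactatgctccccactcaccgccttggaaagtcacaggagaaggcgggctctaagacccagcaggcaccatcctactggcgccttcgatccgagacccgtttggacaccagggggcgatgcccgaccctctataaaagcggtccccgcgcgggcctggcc
Ebf1, chr11:44617850-44618099, plus: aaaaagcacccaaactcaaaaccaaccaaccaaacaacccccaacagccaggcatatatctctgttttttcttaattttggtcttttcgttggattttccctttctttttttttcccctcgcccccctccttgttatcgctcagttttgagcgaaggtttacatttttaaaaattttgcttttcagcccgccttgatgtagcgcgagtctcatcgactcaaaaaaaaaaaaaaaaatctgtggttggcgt
Nr1h3, chr2:91195117-91195366, minus: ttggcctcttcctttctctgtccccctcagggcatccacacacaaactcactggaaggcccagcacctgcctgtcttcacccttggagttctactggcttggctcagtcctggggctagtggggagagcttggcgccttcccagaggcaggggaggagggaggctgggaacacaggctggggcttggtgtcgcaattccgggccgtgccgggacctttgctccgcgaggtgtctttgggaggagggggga
Zfp423, chr8:87959596-87959845, minus: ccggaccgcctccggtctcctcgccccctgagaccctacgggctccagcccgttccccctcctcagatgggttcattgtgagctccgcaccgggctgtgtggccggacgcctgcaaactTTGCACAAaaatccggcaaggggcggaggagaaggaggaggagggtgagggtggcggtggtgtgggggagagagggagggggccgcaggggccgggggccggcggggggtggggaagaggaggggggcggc
Cebpb, chr2:167688665-167688914, plus: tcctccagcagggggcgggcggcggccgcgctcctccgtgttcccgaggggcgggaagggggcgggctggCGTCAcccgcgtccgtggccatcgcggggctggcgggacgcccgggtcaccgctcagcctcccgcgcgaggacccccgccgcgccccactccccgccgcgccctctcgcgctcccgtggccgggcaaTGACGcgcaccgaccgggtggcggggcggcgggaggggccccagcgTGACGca
Pparg, chr6:115421816-115422065, plus: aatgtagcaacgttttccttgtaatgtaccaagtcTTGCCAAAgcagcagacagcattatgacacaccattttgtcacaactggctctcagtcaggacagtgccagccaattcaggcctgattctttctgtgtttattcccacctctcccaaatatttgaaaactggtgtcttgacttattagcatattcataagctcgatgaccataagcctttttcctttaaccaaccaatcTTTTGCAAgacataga
The *Cebpb* window held TGACG 3 times, starting 180, 53 and 7 bases before the start site. *Ppara* held it 1 time, 222 bases before its start, and the windows of the other members had no match to these letters. Over all 32851 promoters of the same length TGACG occurred in 17.8%. The C/EBP core was in the downstream *Pparg* window 2 times, at 215 and 16 bases, and in the first *Zfp423* window 1 time, at 131 bases, against 9.56% of all promoters. AGGTCA was in the other *Pparg* windows, the second *Rxra* window (2 times) and the second *Zfp423* window, against 14.0% of all promoters. None of the 3 motifs was found in the windows of *Cebpa*, *Ebf1* or *Nr1h3*. These matches describe letters in a window, and binding was not measured.

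Library totals ranged from 9053521 to 16546187 estimated counts, of which 1 ribosomal RNA gene, *CT010467.1*, took between 11.7% and 51.8%. Its mean share, ± SD over 4 libraries, was 29.0% ± 12.8 in empty vector control and 36.8% ± 12.8 in stimulated empty vector libraries, against 19.1% ± 1.11 and 21.1% ± 7.18 in control and stimulated sgRNA libraries. Counts of the members ran from 34, for *Cebpd*, to 5068, for *Cebpa*. As checks of the labels, *Gm15551* averaged 0.952 CPM (SD 0.405, n = 4) in control libraries of the empty vector and 2.97 ± 1.08 in sgRNA control libraries, and 0.147 ± 0.199 and 1.56 ± 0.420 in the stimulated ones, with sgRNA above empty vector libraries in each treatment. *Ucp1*, the uncoupling protein of brown fat, averaged 0.350 ± 0.302 in control and 6.42 ± 2.67 in stimulated empty vector libraries. The 11 listed brown adipocyte markers summed to between 9312 and 21704 CPM, most of it *Fabp4*, a general adipocyte gene with group means of 12136 to 16133 CPM. In empty vector control libraries *Elovl3* averaged 236 CPM, *Ppargc1a* 37.9 CPM and *Cidea* 1.61 CPM, while *Prdm16* had at most 29 counts and *Dio2* at most 1 in any library. Among markers of other cells, *Adgre1*, *Ptprc*, *Kdr*, *Cdh5*, *Myod1* and *Myf5* had at most 4 counts in any library, while *Cd68* of macrophages had 57 to 403, *Pecam1* of endothelium 15 to 49, and *Des* and *Acta1* of muscle 23 to 240 and 9 to 43. Levels are given as CPM, counts relative to the library size after TMM scaling. Levels of different members are compared with each other only per kilobase of merged exon.

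Per kilobase, *Cebpa*, *Cebpb* and *Pparg* were the most abundant members and *Cebpd* the least. Over the 16 libraries the levels were 84.5 ± 32.6 CPM per kilobase (SD, n = 16) for *Cebpa*, 62.3 ± 21.2 for *Cebpb* and 45.3 ± 3.75 for *Pparg*. *Nr1h3* followed at 15.3 ± 2.53, *Rxra* at 11.0 ± 2.64 and *Ebf1* at 7.07 ± 0.888. *Ppara* at 3.14 ± 1.56, *Zfp423* at 2.49 ± 0.682, *Ppard* at 2.36 ± 0.347 and *Cebpd* at 1.67 ± 0.682 formed the low end. A clear step separated *Pparg* from *Nr1h3*: the lowest *Pparg* level, 38.9 CPM per kilobase, lay above the highest *Nr1h3* level, 19.2. The ranges of all other neighbours overlapped. *Cebpa* was above *Cebpb* in 13 of 16 libraries and *Cebpb* above *Pparg* in 13 of 16, while *Ppara* was above *Zfp423* in only 10 and *Zfp423* above *Ppard* in only 9, so those neighbours did not differ beyond their spread. The order of group means was the same in both control groups. In stimulated sgRNA cells *Cebpb* stood above *Cebpa*, and in stimulated empty vector cells *Ppard* stood above *Zfp423*.

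**Figure D1:**
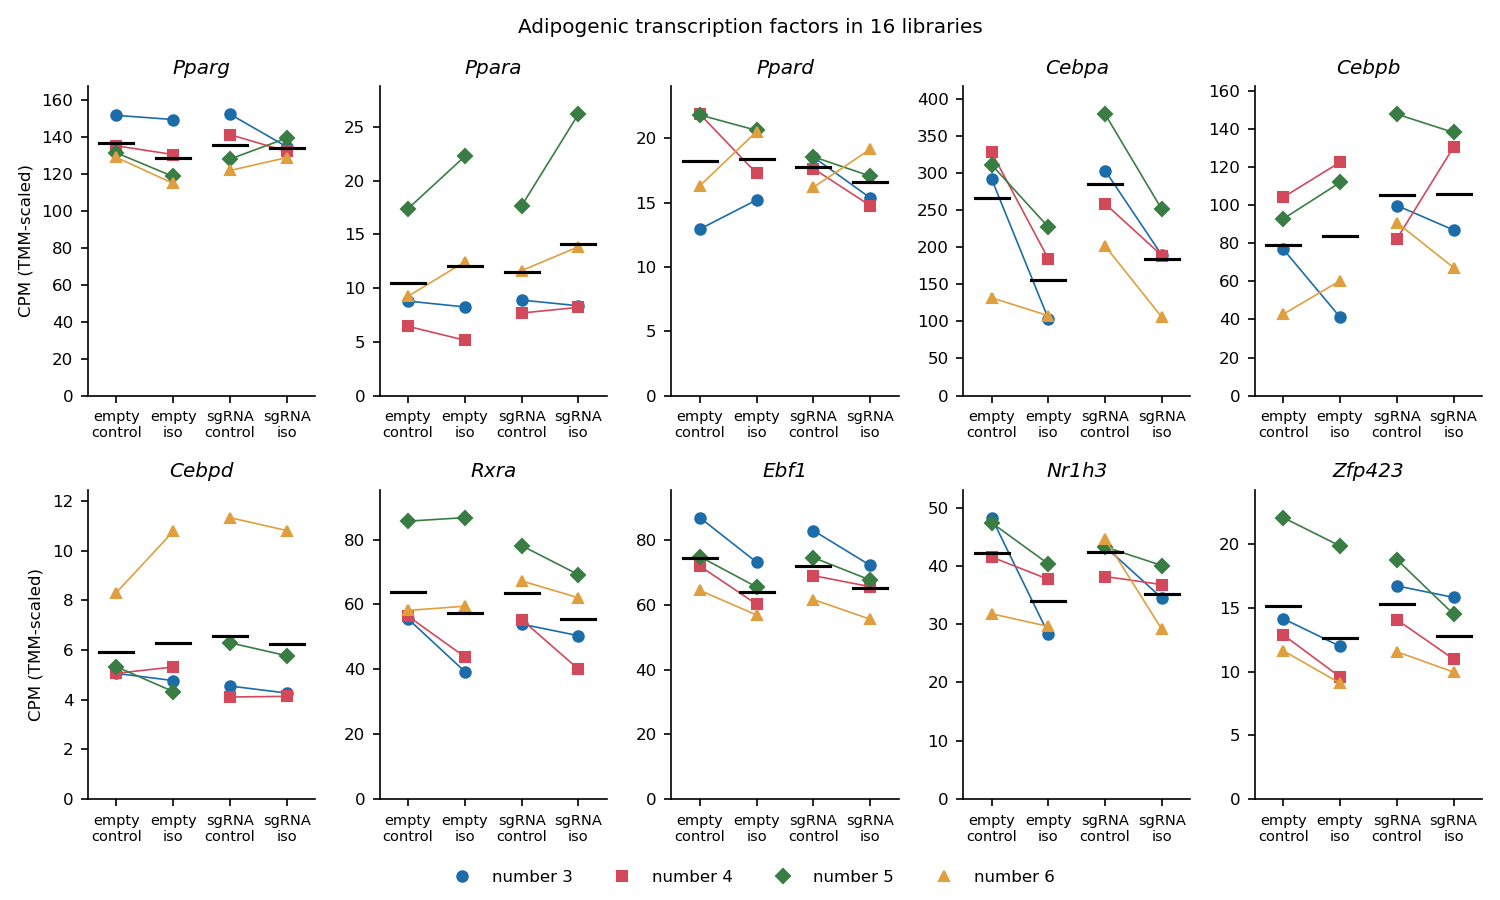
Level of each member in CPM (vertical axis, from 0) in the 4 groups (horizontal axis), where each symbol is 1 library, its colour and shape mark the replicate number, lines join control and stimulated libraries of the same plasmid and number, and black bars are group means. *Cebpa* falls along all 8 lines, whereas number 5 lies above the other libraries of *Ppara* and number 6 above those of *Cebpd*.

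The isoproterenol comparison asks how β-adrenergic stimulation changed these factors. *Cebpa* was the member that differed most. In empty vector cells its control libraries had 292, 328, 311 and 132 CPM in numbers 3, 4, 5 and 6, and its stimulated libraries 103, 184, 227 and 108 CPM. In sgRNA cells the control libraries had 303, 258, 379 and 202 CPM and the stimulated ones 189, 189, 251 and 105 CPM. The stimulated library was the lower of the pair in 8 of 8 pairs of the same plasmid and number, with a stimulated to control ratio between 0.354 and 0.818 and a median of 0.643, but the groups overlapped because number 6 was low in both treatments. In bulk libraries fewer cells of a type and less RNA per cell cannot be told apart. Averaged over plasmids, the log2 fold change of *Cebpa* without a replicate term was −0.71 (SE 0.23), and edgeR's adjusted p was 0.0979. When the replicate number entered as a block it was −0.72 (SE 0.11, 95% interval −0.95 to −0.48) with an adjusted p of 0.000236, and DESeq2 without the block gave −0.70 with an adjusted p of 0.0332.

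Without the block none of the 10 members passed an adjusted p of 0.05, while 4.49% of the 13150 genes tested passed in either direction. *Cebpa*, *Ebf1* and *Nr1h3* had an unadjusted p under 0.05 in that fit, as did 2330 of the 13150 genes tested. By DESeq2 1 member, *Cebpa*, passed, among 942 genes in all. Deviations from the group means correlated in all 24 pairs of the same number (lowest r 0.22), so the blocked values are given beside these. Libraries of numbers 3 and 4 in different groups correlated with each other too (r from 0.0586 to 0.52). The check therefore cannot separate pairing by each number from a coarser grouping of numbers. With the block 4 members fell, against 10.4% of all genes tested that were lower. The median log2 fold change of the 10 members was −0.12 in either fit, beside 0.00 over all genes tested in both fits.

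*Ebf1*, the early B-cell factor of adipocyte commitment, fell by a small and even amount. Its control libraries had 87.0, 72.0, 74.9 and 64.5 CPM with the empty vector and 83.0, 69.0, 74.6 and 61.6 with the sgRNA plasmid. Stimulated libraries had 73.2, 60.2, 65.5 and 56.9 CPM and 72.2, 65.6, 67.7 and 55.6 CPM. The groups overlapped, yet the stimulated library was lower in 8 of 8 pairs, with ratios from 0.836 to 0.951. With the block this came to −0.18 on the log2 scale (SE 0.04), and the adjusted p was 0.00281 with it and 0.268 without.

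*Nr1h3* fell with an equally shared direction but uneven size. Control libraries had 48.3, 41.5, 47.4 and 31.8 CPM with the empty vector, and 43.3, 38.2, 43.3 and 44.6 with the sgRNA plasmid. Stimulated libraries had 28.3, 37.7, 40.3 and 29.6 CPM and 34.5, 36.8, 40.0 and 29.1 CPM, lower in 8 of 8 pairs. The pair ratios ran from 0.587, in the empty vector cells of number 3, to 0.964. The fit with the block put it at −0.30 (log2, SE 0.08), and its adjusted p was 0.0158, or 0.130 without the block. Leaving out number 3 gave −0.21 and an adjusted p of 0.110 with the block, so the call rested on that number.

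*Zfp423*, a zinc finger cofactor that acts upstream of *Pparg*, was low throughout. Control libraries had 14.1, 12.9, 22.1 and 11.6 CPM with the empty vector and 16.7, 14.1, 18.8 and 11.6 with the sgRNA plasmid, and stimulated libraries 12.0, 9.57, 19.8 and 9.08 CPM and 15.8, 11.0, 14.5 and 9.96 CPM. All 8 pairs were lower with stimulation, with ratios from 0.744 to 0.946. Its difference with the block was −0.27 (log2, SE 0.09), for which the adjusted p was 0.0357, and 0.500 without the block. This call held in only 6 of the 20 blocked fits that left out a library or a number, with adjusted p-values up to 0.197 and log2 fold changes from −0.33 to −0.22.

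The PPARs and RXRA did not pass in either fit. *Pparg* had control libraries between 122 and 153 CPM and stimulated ones between 115 and 150 CPM, and its blocked log2 fold change was −0.06 with a 95% interval of −0.15 to 0.04. *Rxra*, its partner, was lower in 6 of 8 pairs, with a blocked log2 fold change of −0.20 (SE 0.07, interval −0.36 to −0.05) and an adjusted p of 0.0589. *Ppara* was higher in 5 of 8 pairs, with a blocked value of 0.17 (interval −0.04 to 0.38). Its unblocked value, 0.25, was 0.0111 without the stimulated sgRNA library of number 5 and 0.00484 with the share of *CT010467.1* as covariate. *Ppard* was lower in 5 of 8 pairs, with −0.04 (interval −0.24 to 0.16). The early C/EBP factors did not pass either. *Cebpb* was lower in 4 pairs and higher in 4, with a blocked value of 0.00 (interval −0.31 to 0.32), and *Cebpd* was lower in 5 pairs, with −0.02 (interval −0.25 to 0.22). A p that misses the threshold does not show that these genes were unaffected, and the interval of *Rxra* lay below 0.

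**Figure D2:**
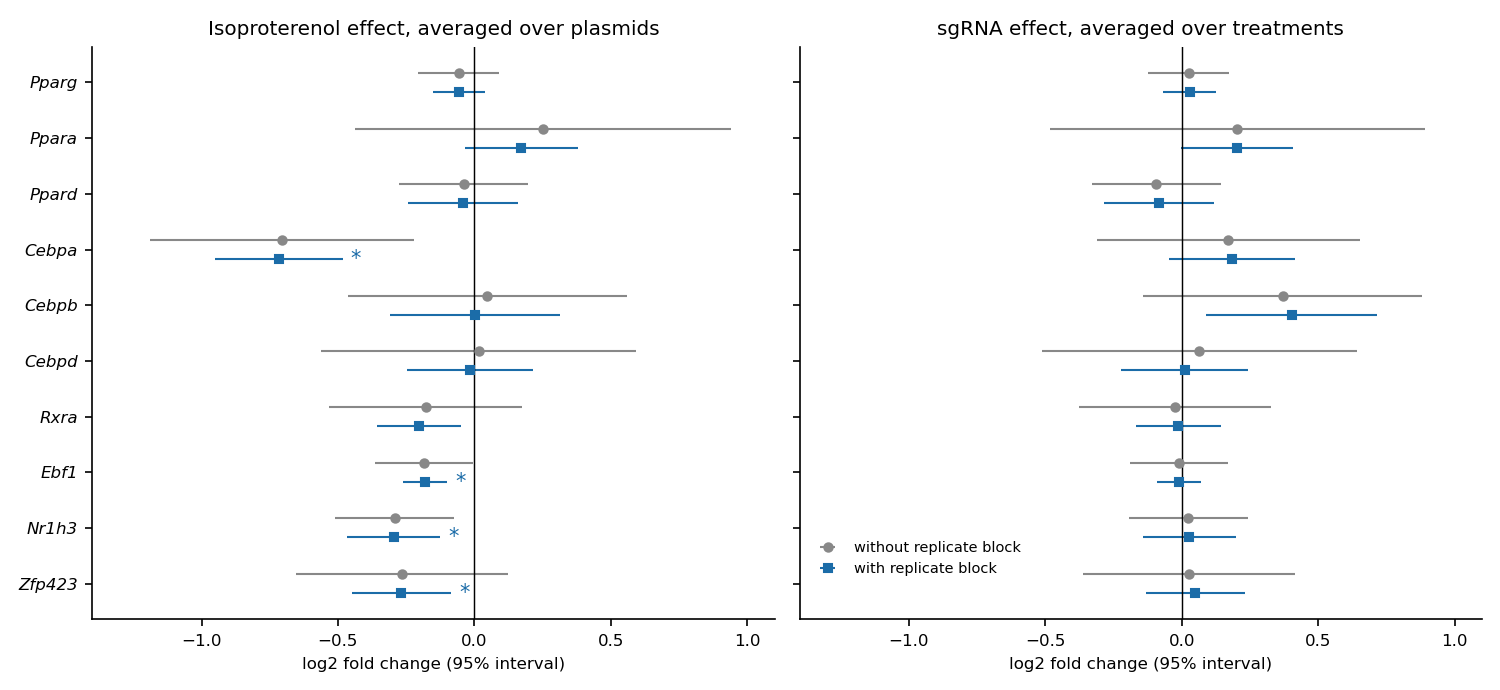
Log2 fold change (horizontal axis) of each member (vertical axis) for the averaged isoproterenol effect (left) and the averaged sgRNA effect (right), where grey circles are estimates without and blue squares with the replicate block, bars are 95% intervals and stars mark an adjusted p under 0.05. *Cebpa*, *Ebf1*, *Nr1h3* and *Zfp423* carry stars for isoproterenol with the block, and no member does for the sgRNA effect.

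Ratios between members were compared per kilobase. The ratio of *Cebpa* to *Cebpb* was 1.91 ± 0.184 (SD, n = 4) in empty vector control and 1.12 ± 0.244 in stimulated empty vector libraries, and the ranges, 1.76 to 2.16 and 0.856 to 1.43, did not overlap. In sgRNA cells it was 1.56 ± 0.244 in control and 0.998 ± 0.183 in stimulated libraries, with ranges of 1.26 to 1.79 and 0.823 to 1.24. The ratio of *Cebpa* to *Pparg* was 2.17 ± 0.726 in control and 1.39 ± 0.605 in stimulated empty vector libraries. Its ranges, 1.14 to 2.71 and 0.775 to 2.14, overlapped. In sgRNA cells it was 2.36 ± 0.655 and 1.52 ± 0.453, again with overlapping ranges. Within every pair of the same plasmid and number the stimulated library had the lower *Cebpa* to *Pparg* ratio. The ratio of *Rxra* to *Pparg* was 0.255 ± 0.0677 and 0.250 ± 0.113 in control and stimulated empty vector libraries, with overlapping ranges. These ratios were chosen after the values were seen and are given as a description.

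Within each plasmid the same direction held for *Cebpa*. In empty vector cells 0.913% of all genes passed without the block and no member did. With the block *Cebpa* fell by 0.76 in log2 units (SE 0.16), at an adjusted p of 0.00536, and *Ebf1* fell by 0.22 (SE 0.05), at 0.0153, against 5.07% of all genes that were lower. The *Ebf1* call was lost without the empty vector control library of number 3, without the stimulated one of number 4 and without any complete number. When the share of *CT010467.1* was added to the blocked fit as covariate the *Ebf1* value was −0.20 (SE 0.06, adjusted p = 0.0555), and the members that passed were *Cebpa* at −0.64 (0.0206) and *Zfp423* at −0.42 (0.0272, against −0.28 and 0.175 without the covariate). The share of all genes that passed in that covariate fit is not given here. In sgRNA cells 0.722% of all genes passed without the block, again with no member. With it *Cebpa* fell by 0.67 (SE 0.15, adjusted p = 0.0118), against 4.12% of all genes that were lower. This call was lost without number 5, without number 6, and without the sgRNA control library of number 3 or either sgRNA library of number 6. The interaction of sgRNA and isoproterenol, which tests whether the stimulated to control difference depended on the plasmid, was 0.08 for *Cebpa* with the block (SE 0.22, interval −0.38 to 0.55). It passed for no member, and for 0% of all genes in either fit, with 52 genes at an unadjusted p under 0.05 without the block, 199 with it and 115 by DESeq2, which also called none.

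The share of *CT010467.1* was higher in stimulated than in control libraries on average, and its part in the isoproterenol differences was checked by adding it as a covariate. With the block and this covariate *Cebpa* was at −0.64 (adjusted p = 0.000710), *Ebf1* at −0.17 (0.0100), *Nr1h3* at −0.26 (0.0441) and *Zfp423* at −0.35 (0.00367), and *Rxra* passed as well at −0.24 (0.0341). The share of all genes that passed with block and covariate is not given here, so these calls lack a background. With the block alone 10.4% of all genes tested were lower. Of 6 macrophage markers only *Cd68* was tested. It rose with isoproterenol by 0.91 without the block (SE 0.17, adjusted p = 0.00518). With the block it rose by 0.92 (SE 0.07, adjusted p = 2.56e-07). The 6 genes summed to between 8.31 and 14.3 CPM in control and between 14.4 and 22.9 CPM in stimulated empty vector libraries. Nearly all of it was *Cd68*, while *Adgre1* had at most 1 count and *Ptprc* at most 2. In sgRNA cells the sums were 6.59 to 13.6 and 13.9 to 22.6 CPM. The 12 preadipocyte markers summed to 42.6 to 161 CPM in control and 57.3 to 187 CPM in stimulated empty vector libraries, and to 36.3 to 124 and 47.6 to 164 CPM in sgRNA libraries. Of the 7 tested none passed without the block and 2 rose with it, *Ly6a* by 1.09 (SE 0.11) and *Cd24a* by 0.53 (SE 0.11), each higher in 8 of 8 pairs, beside 10.9% of all genes tested that were higher. Among muscle markers *Des* rose by 0.49 with the block (SE 0.13, adjusted p = 0.0140; 0.523 without it), and *Acta1*, at 0.32, did not pass, both higher in 7 of 8 pairs. *Pecam1* was at −0.24 and did not pass. In empty vector libraries the 11 brown adipocyte markers summed to 18293 ± 3958 CPM (SD, n = 4) in control and 13557 ± 3763 when stimulated. In sgRNA libraries the sums were 18317 ± 1956 and 15033 ± 3988 CPM. Of the 10 tested 2 rose and 2 fell without the block, beside 2.06% and 2.43% of all genes. With it *Ucp1*, *Cidea*, *Elovl3* and *Ppargc1a* rose and *Adipoq*, *Fabp4*, *Plin1* and *Lipe* fell, beside 10.9% and 10.4%. The part of these lists in the members' differences was not tested.

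The sgRNA comparison asks whether activation of *Gm15551* changed these factors in mature cells. No member passed for the averaged sgRNA effect in either fit or by DESeq2. Without the block 0% of all genes passed (437 had an unadjusted p under 0.05, and DESeq2 called 12), and with it 0.586% did. *Cebpb* had the largest difference in the fits without a covariate. Its empty vector libraries had 77.0, 104, 93.0 and 42.8 CPM in control and 41.2, 123, 112 and 60.4 CPM with isoproterenol, and its sgRNA libraries 100.0, 82.4, 148 and 91.0 CPM and 87.1, 131, 138 and 67.3 CPM. The sgRNA library was the higher in 7 of 8 pairs, with ratios from 0.790 to 2.13, and the groups overlapped. Its log2 fold change was 0.37 (SE 0.24) without and 0.40 (SE 0.15, interval 0.09 to 0.71) with the block, with adjusted p-values of 1.00 and 0.303. With the share of *CT010467.1* as covariate, which was lower in sgRNA libraries, it was 0.22 (SE 0.30) without the block and 0.0449 (SE 0.19) with it.

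For *Ppara* all 8 pairs had the higher level with the sgRNA plasmids, by ratios from 1.01 to 1.59, with a blocked log2 fold change of 0.20 (SE 0.10, interval −0.0049 to 0.41) and an adjusted p of 0.445. *Pparg* had a blocked value of 0.03 (interval −0.07 to 0.12), *Ebf1* one of −0.01 (interval −0.09 to 0.07), *Rxra* one of −0.01 (interval −0.17 to 0.14) and *Nr1h3* one of 0.03 (interval −0.14 to 0.20). *Cebpa* was at 0.18 (interval −0.05 to 0.42), *Zfp423* at 0.05 (interval −0.13 to 0.23), *Cebpd* at 0.01 (interval −0.22 to 0.24) and *Ppard* at −0.08 (interval −0.29 to 0.12).

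These sgRNA estimates depended on the covariate, although no member passed with it. Without the block and with the share of *CT010467.1* in the model *Ppara* was at 0.95 (SE 0.33), *Zfp423* at 0.41 (SE 0.19) and *Rxra* at 0.33 (SE 0.16), each with an adjusted p of 0.753. *Cebpd* was then at 0.18, *Cebpa* at 0.15, *Ppard* at 0.0234, *Nr1h3* at 0.0143, *Ebf1* at −0.00581 and *Pparg* at −0.00758. With both the block and the covariate *Zfp423* was the highest, at 0.29 (SE 0.11, adjusted p = 0.917). *Ppara* was at 0.20 (SE 0.15), *Rxra* at 0.0992 (SE 0.10), *Ppard* at 0.0871 and *Pparg* at 0.0225, while *Cebpa* at −0.0244, *Ebf1* at −0.0469, *Nr1h3* at −0.0860 and *Cebpd* at −0.13 lay below 0. Within control cells 0% of all genes passed without and 0.038% with the block, within stimulated cells 0% without and 0.137% with it, and no member was among them. Without the block 194 and 196 genes had an unadjusted p under 0.05 in control and stimulated cells, and DESeq2 called 2 in each.

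The replicate numbers separated most of the members more than either factor of the design did. In the joint test of the 4 numbers 8 of 10 members passed, beside 54.7% of all genes tested, so the share in the members is to be read against a majority of the transcriptome. *Ppara* spanned the widest range, 1.60 on the log2 scale between the highest and the lowest number (adjusted p = 1.39e-06). Its 4 libraries of number 5 had 17.4 to 26.2 CPM, above every other library, against 8.25 to 8.88 in number 3, 5.15 to 8.20 in number 4 and 9.24 to 13.8 in number 6. *Cebpd* spanned 1.14 (adjusted p = 2.76e-05), with 8.31 to 11.3 CPM in number 6 and at most 6.29 CPM in any other library. Without number 6 the adjusted p of *Cebpd* was 0.427.

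Number 6 was also where *Cebpa* was lowest, at 137 ± 44.9 CPM (SD, n = 4) against 292 ± 68.1 in number 5, a log2 range of 1.11 (adjusted p = 0.000272). *Cebpb* was at 65.4 ± 19.9 CPM in number 6 and 123 ± 25.1 in number 5 (range 0.92, adjusted p = 0.00406), and *Zfp423* at 10.6 ± 1.25 and 18.8 ± 3.18 (range 0.82, adjusted p = 0.000230). *Rxra* was highest in number 5, at 80.0 ± 8.13 CPM, and lowest in number 4, at 48.9 ± 8.19 (range 0.72, adjusted p = 0.000109). *Ebf1* ran from 78.8 ± 7.28 CPM in number 3 to 59.6 ± 4.15 in number 6 (range 0.40, adjusted p = 0.000155) and *Pparg* from 147 ± 8.32 to 124 ± 6.72 (range 0.25, adjusted p = 0.0189). *Nr1h3* (range 0.34, adjusted p = 0.0975) and *Ppard* (range 0.32, adjusted p = 0.226) did not pass. Without number 6 the tests of *Cebpa* (adjusted p = 0.0810) and *Cebpb* (0.0562) no longer passed. The *Pparg* call was lost without number 3 (0.160), without number 6 (0.146), without the sgRNA control library of number 3 (0.0567) and without the stimulated empty vector library of number 6 (0.0506). The numbers also differed in preadipocyte markers, whose 12 genes summed to 124 to 187 CPM in number 6 and 36.3 to 88.8 CPM in the other libraries. The brown adipocyte markers summed to 11847 ± 2951 CPM (SD, n = 4) in number 6 and to means of 15782 to 19549 CPM in the others. The part of these differences in the members' levels was not tested.

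**Figure D3:**
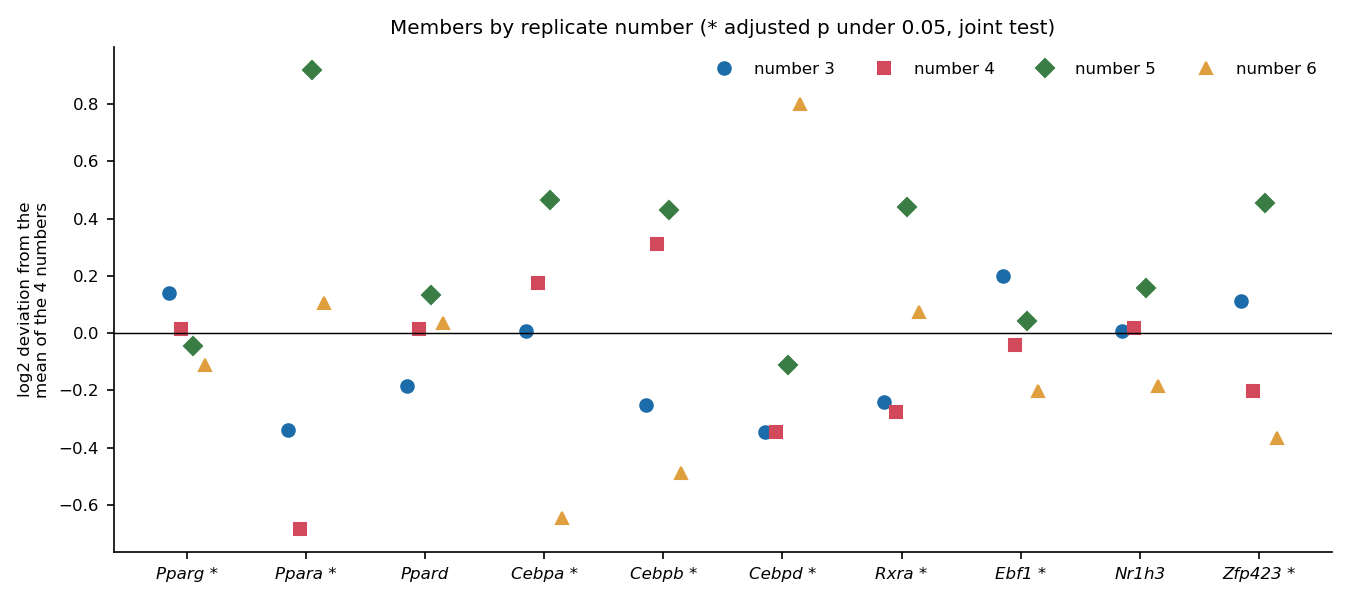
Deviation of each replicate number from the mean of the 4 numbers on the log2 scale (vertical axis) for each member (horizontal axis), with groups held in the model. Number 6 is the lowest for *Cebpa*, *Cebpb*, *Zfp423*, *Ebf1*, *Pparg* and *Nr1h3* and the highest for *Cebpd*.

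The variation of each member over the 16 libraries was split by source. Replicate number held 89.3% of the sum of squares of log2 CPM for *Cebpd*, 89.2% for *Ppara*, 76.0% for *Rxra*, 72.4% for *Zfp423*, 69.2% for *Ebf1* and 64.3% for *Pparg*, beside a median of 46.8% over all genes tested. It held 53.7% for *Cebpb*, 47.9% for *Cebpa*, 33.8% for *Ppard* and 28.5% for *Nr1h3*. The number takes 3 degrees of freedom and each factor 1. Isoproterenol held 37.6% for *Nr1h3*, 36.6% for *Cebpa*, 26.9% for *Ebf1* and 13.8% for *Zfp423*, beside a median of 6.79%. The sgRNA plasmid held 16.2% for *Cebpb* and at most 3.46% for any other member, beside a median of 2.38%. *Ppard* had the largest rest, 59.5%. *Pparg* varied least, with an SD of 0.12 in log2 CPM, and *Ppara* most, with 0.65, beside a median SD of 0.27 over all genes.

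**Figure D4:**
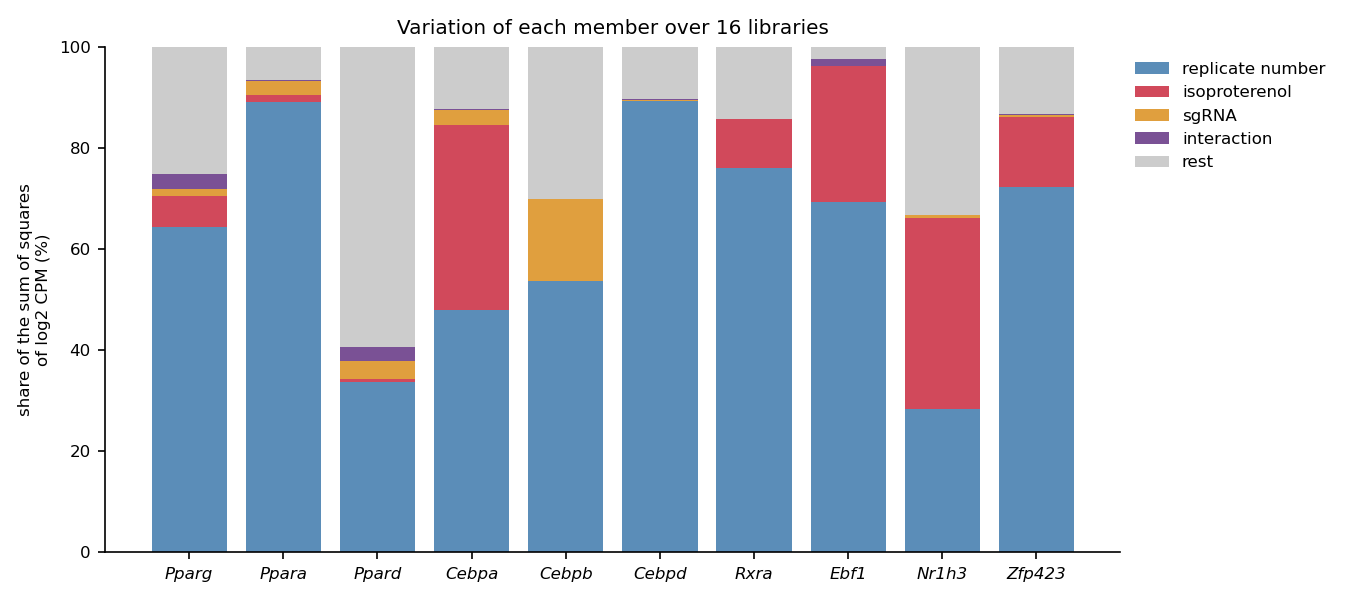
Share of the sum of squares of log2 CPM (vertical axis, %) that falls on replicate number, isoproterenol, sgRNA, their interaction and the rest, for each member (horizontal axis). Replicate number takes 89.3% for *Cebpd* and isoproterenol 36.6% for *Cebpa*.

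After the mean of each number was removed, the highest correlations among the members involved those that fell with isoproterenol. Pearson's r across the 16 libraries was 0.89 between *Cebpa* and *Nr1h3*, 0.80 between *Cebpa* and *Ebf1*, 0.76 between *Rxra* and *Zfp423*, 0.75 between *Cebpa* and *Rxra*, and 0.69 between *Ebf1* and *Nr1h3*. *Pparg* and *Cebpa*, which sustain each other in the mature adipocyte, had r = 0.21, and *Cebpa* and *Cebpb* 0.50. These libraries share treatments and scaling, so the values are a description. Among all genes tested the one most like *Cebpa* was *Plin1*, the perilipin that coats lipid droplets (r = 0.99 with numbers removed and 0.98 without). For the other members r is again given with numbers removed and then without that removal. The most alike were *Coro1b* for *Nr1h3* (0.96 and 0.88), *Ghr*, the growth hormone receptor, for *Ebf1* (0.96 and 0.64) and *Kdm3b* for *Zfp423* (0.90 and 0.19). They were *Ilrun* for *Rxra* (0.97 and 0.44), *Vti1a* for *Pparg* (0.86 and 0.83), *Nudt9* for *Cebpb* (0.94 and 0.65) and *Psip1* for *Cebpd* (0.88 and 0.75). For *Ppara* it was *Usp17lb* (0.90 and 0.32), which had no count in at least 1 library and a mean of 0.678 CPM.

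Target genes of the members were read from lists. Over all genes tested 2.06% rose and 2.43% fell with isoproterenol without the block, and 10.9% rose and 10.4% fell with it, 21.3% in all. Of 22 listed PPARG and CEBPA target genes 21 were tested. Without the block 9 fell and none rose, and with it 15 fell and 2 rose, with a blocked median log2 fold change of −0.54. *Cfd*, the adipokine adipsin, was at −1.48 (SE 0.29, adjusted p = 0.00763), *Adipoq*, which encodes adiponectin, at −1.06 (SE 0.18, adjusted p = 0.00222), *Acsl1*, an acyl-CoA synthetase, at −0.63 (SE 0.13, adjusted p = 0.00992) and *Retn*, resistin, at −0.58 (SE 0.12, adjusted p = 0.00790), all without the block. The 2 that rose with the block were *Cidea*, a lipid droplet protein of brown fat, at 1.20 (SE 0.21) and *Pck1*, the glyceroneogenic enzyme PEPCK, at 0.79 (SE 0.10). For the sgRNA effect *Cfd* was at 0.42 (SE 0.08) and *Cidea* at 1.05 (SE 0.21), each with an adjusted p of 0.0348 with the block and 1.00 without it. *Cidea* had as few as 10 counts in a library, and 8.49 ± 7.04 CPM (SD, n = 4) in stimulated sgRNA libraries. No value with the share of *CT010467.1* as covariate is given here for *Cfd* or *Cidea*. *Cfd* and *Cidea* were the 2 of 21 targets called with the block, beside 0.586% of all genes tested. In that fit 1 of 7 preadipocyte markers tested was called too, as lower in sgRNA cells.

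The target genes of PPARA and PPARD went both ways. Of 18 listed 16 were tested, 2 rose and none fell without the block, and 6 rose and 4 fell with it, with a blocked median of −0.03, beside 4.49% of all genes called without and 21.3% with the block. *Fgf21*, a hormone of fasting and cold, was at 0.67 (SE 0.11, adjusted p = 0.00225) and *Pdk4*, the kinase that turns off pyruvate oxidation, at 0.59 (SE 0.15, adjusted p = 0.0345) without the block. With the block *Ucp3* rose by 0.92 (adjusted p = 0.0342) and *Acot2*, a mitochondrial thioesterase, fell by 0.50 (adjusted p = 7.28e-05). *Pdk4* was also higher in sgRNA cells with the block, by 0.24 (SE 0.05, adjusted p = 0.0487, and 1.00 without it). It was the 1 sgRNA call of 16 with the block, beside 0.586% of all genes tested. Of 11 LXR target genes, a list that includes *Nr1h3* itself, 9 were tested. There 1 fell without the block, *Lpcat3*, at −0.40 (SE 0.09, adjusted p = 0.0239). With it 5 fell, 1 of them the member *Nr1h3* itself, and among the others *Fasn* was at −0.87 and *Srebf1* at −0.47. *Srebf1* is counted again below among the other adipogenic transcription factors. *Abcg1*, the cholesterol exporter, rose by 0.26 with the block.

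In the lists of other regulators the calls were 1 of 17 transcription factors, 1 of 14 repressors and 2 of 11 coregulators without the block, beside 4.49% of all genes, and 5, 1 and 4 with it, beside 21.3%. Of 21 other adipogenic transcription factors 17 were tested. *Ebf2*, the brown adipocyte paralog of *Ebf1*, fell without the block, at −0.48 (SE 0.10, adjusted p = 0.0109). With the block *Ebf2*, *Srebf1*, *Nr1h2* and *Thra* (−0.35) fell, and *Bcl6* rose by 0.43. Of 16 repressors of adipogenesis 14 were tested, and *Insig1*, which retains SREBP in the endoplasmic reticulum, was the 1 that passed, at −0.93 (SE 0.09, adjusted p = 7.36e-06). *Gata3*, *Irf3* and *Rb1* had −0.79, −0.31 and −0.13 and did not pass in either fit. All 11 nuclear receptor coregulators were tested. *Ppargc1a*, which encodes the coactivator PGC-1α, rose by 0.71 (SE 0.15, adjusted p = 0.0128), and *Nrip1*, the corepressor RIP140, was at −0.37 (SE 0.10, adjusted p = 0.0410). With the block *Ncoa1* (−0.30) and *Ppargc1b* (−0.35) fell as well, while *Ncoa3*, at 0.18, did not pass. The blocked medians of these lists were −0.10, −0.07 and 0.04. *Nr1h2*, *Pck1* and *Ppargc1b* are named because they complete a count of calls.

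**Figure D5:**
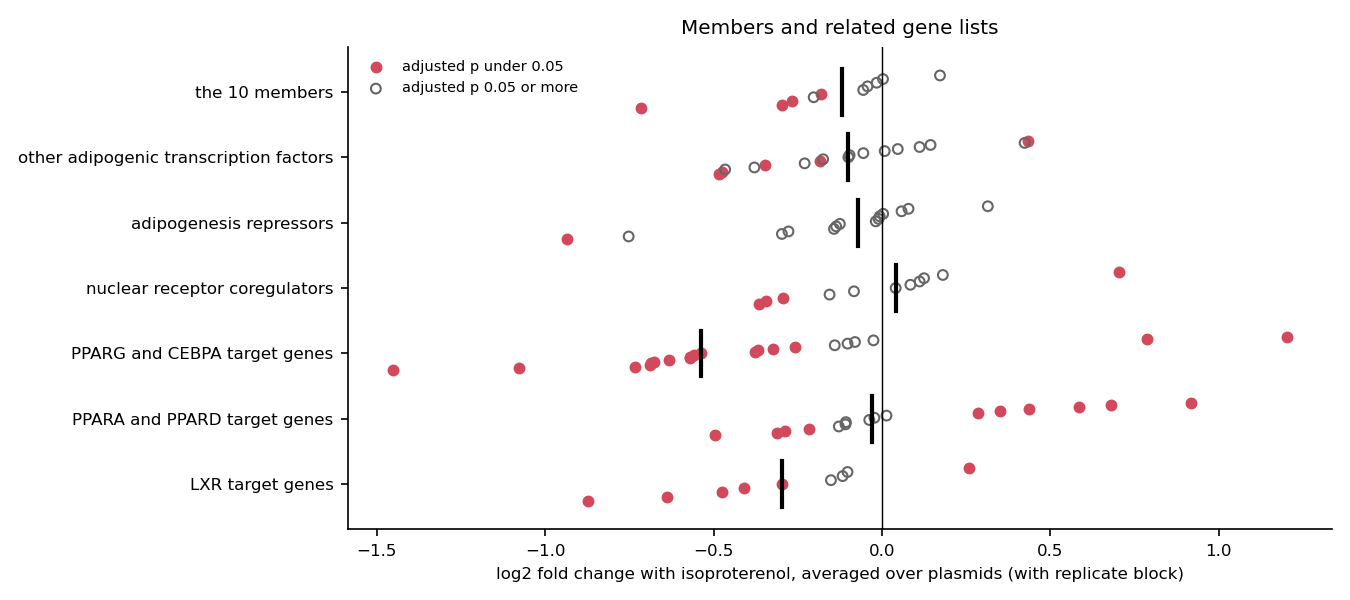
Blocked log2 fold change with isoproterenol, averaged over plasmids (horizontal axis), of the members and of the genes tested in 6 related lists (rows), where each circle is 1 gene, filled at an adjusted p under 0.05, and black bars are medians. The PPARG and CEBPA target genes have a median of −0.54, the 10 members one of −0.12.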

How the data were processed

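RNA of differentiated wt1-SAM cells was sequenced in paired ends, in 16 libraries. The authors trimmed reads with cutadapt, quantified them with Salmon against GENCODE M22 (GRCm38) and deposited estimated counts per gene, which were already whole numbers. Tool versions and strand use were not given in the sources used here. Groups came from the sample titles, and all 16 columns were used. Coordinates and exon lengths came from GENCODE M21 on the same build.

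Genes were filtered with filterByExpr (minimum count 10, minimum total 15), scaled by TMM and tested in R 4.3.3 with edgeR 4.0.16 (glmQLFit and glmQLFTest, two-sided) in a model of the 4 group means. Benjamini-Hochberg adjustment covered the 13150 genes tested. A gene passed, and is said to rise or fall, at an adjusted p under 0.05. The averaged effects, the effects within each level of the other factor and the interaction were tested, and the replicate numbers by a joint test in a model of group and number. Scripts were tested on simulated data. Log2 CPM used a prior count of 2.

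Whether numbers pair the libraries was checked on deviations from the group means. Same-number pairs had r from 0.22 to 0.61 (n = 24), pairs of different number and group a median of −0.21 and at most 0.52. The median biological coefficient of variation was 18.0% without and 9.96% with number as a block, so blocked values are given where they change a call. Alternatives were DESeq2 1.42.0, RLE scaling, no filter, removal of *CT010467.1* or its share as covariate, a fold bound of 0.5 and leaving out libraries or numbers. Blocked fits with a library left out or the covariate were added after the data were seen.

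Members and lists were chosen with earlier results of these data known. Named genes were the members, up to 4 genes per list with the smallest p for isoproterenol, those that passed for sgRNA, and the gene most correlated with each member. The last is not reported here for *Ppard*.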

Additional observations from a re-analysis of the deposited data

Results flagged for a closer look

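Within each group of 4 libraries, Dixon's test at the 95% level asked whether the highest or lowest library stood apart from the others. Of 40 sets of member and group 3 passed it, and chance alone gives about 1 in 20. *Cebpd* in the library of number 6 stood apart at 8.31 CPM in empty vector control cells, where the others had 5.06 to 5.32 CPM. It stood apart again at 10.8 CPM in stimulated empty vector cells, where the others had 4.33 to 5.31 CPM. In sgRNA cells number 6 was highest as well. *Rxra* in the empty vector control library of number 5 was at 85.7 CPM, where the others had 55.5 to 58.2 CPM, and number 5 was highest for *Rxra* in all 4 groups.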

How the results depend on the processing

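The directions of *Cebpa*, *Ebf1*, *Nr1h3* and *Zfp423* with isoproterenol were the same in all fits run, but the calls of *Ebf1* and *Zfp423* were made only with the replicate block. *Cebpa* also passed in some unblocked alternatives, and *Nr1h3* in 1. The number of members that passed for the averaged isoproterenol effect went from 0 to 4 with the block, to 1 without the low-count filter and to 1 by DESeq2. It was 2 for the effect in empty vector cells and 1 in sgRNA cells with the block. The count of all genes went from 590 to 2799 with the block, 942 by DESeq2 and 349 with a fold bound, and for the averaged sgRNA effect from 0 to 77 with the block, 10 without the filter, 4 with the *CT010467.1* covariate and 12 by DESeq2.

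Signs reversed for several members that did not pass. For isoproterenol *Cebpd* was at −0.0157 with the block, −0.00767 without the filter and −0.0359 with the covariate, and at 0.0401 with block and covariate together. For the sgRNA effect *Pparg* was at −0.00758 and *Ppard* at 0.0234 with the covariate, *Rxra* at 0.00462 without the filter and 0.33 with the covariate, and *Ebf1* at 0.0197 without the filter. With block and covariate together the sgRNA signs of *Cebpa* (−0.0244), *Cebpd* (−0.13), *Nr1h3* (−0.0860), *Ppard* (0.0871) and *Rxra* (0.0992) were turned against the blocked fit. The cause was not tested.

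Leaving out a library or number gave 0 to 2 members for isoproterenol without the block. *Cebpa* then passed without number 6 (adjusted p = 0.0430), without its empty vector control library (0.0289), where *Nr1h3* passed too (0.0365), and without the stimulated empty vector library of number 5 (0.0451). All genes numbered 137 (without number 3) to 864 (without that stimulated library). With the block 3 to 5 members passed for the averaged effect, 1 to 3 in empty vector cells and 0 to 1 in sgRNA cells. Counts of all genes are not given for these blocked fits. With all libraries and the block, 10.4%, 5.07% and 4.12% of all genes tested were lower in these comparisons. *Cebpa* and *Ebf1* passed for the averaged effect in 20 of 20 blocked fits, and *Rxra* in 4. For the numbers 4 (without number 6) to 9 members passed, and 3787 to 7610 genes, and for the sgRNA effect 0 to 2 genes. For isoproterenol the log2 fold changes ranged from −0.10 to 0.18 for *Cebpb* (−0.13 to 0.16 with the block), −0.19 to 0.21 for *Cebpd* (−0.0838 to 0.0375), 0.0111 to 0.42 for *Ppara* (0.0535 to 0.26) and −0.16 to 0.0550 for *Ppard* (−0.16 to 0.0588). Those of *Pparg* ranged from −0.0980 to −0.0306 (−0.0835 to −0.0280 with the block) and those of *Rxra* from −0.31 to −0.0945 (−0.26 to −0.13). For the sgRNA effect they ranged from 0.26 (without the stimulated empty vector library of number 3) to 0.58 (without number 4) for *Cebpb*, 0.0595 to 0.30 for *Cebpa*, −0.14 to 0.27 for *Cebpd*, −0.0409 to 0.0353 for *Ebf1*, −0.0323 to 0.0721 for *Nr1h3*, −0.0292 to 0.44 for *Ppara*, −0.0930 to 0.11 for *Rxra* and −0.0796 to 0.20 for *Zfp423*. The sgRNA values ran from 0.00412 to 0.0671 for *Pparg* and from −0.19 to −0.0153 for *Ppard*.

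Counts of *Cebpd* were as low as 34 and limit its precision. With 3 counts as the floor, the libraries resolved 0.166 to 0.390 CPM. The effect of separate cultures cannot be told apart from technical repeats, and isoforms were summed.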
